A study of Homo sapiens with 6 samples.

Results

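Phosphofructokinase catalyses the committed step of glycolysis, and in human cells its subunits are encoded by PFKL (liver type), PFKM (muscle type) and PFKP (platelet type). The PFKFB genes PFKFB1, PFKFB2, PFKFB3 and PFKFB4 encode bifunctional enzymes that make and break down a fructose bisphosphate that activates phosphofructokinase. Lactate is an end product of this pathway, and lactyl groups derived from it can be attached to histone lysines. H4K5la is the lactyl mark on lysine 5 of histone H4, and such acyl marks are commonly found at active genes and regulatory elements.

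ChIP-seq of H4K5la was done in PLC/PRF/5, an established human hepatocellular carcinoma line. Peak lists were analysed for 2 libraries of cells given 20 mM lactate for 24 h and 2 libraries of untreated control cells, in both groups labelled replicates 2 and 3. The labels do not say whether the libraries came from separate cultures, so the p-values below cover only how far these libraries differ, and that spread may be technical. The 2 input libraries without antibody were not analysed here.

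The 7 genes were taken from 19970 protein-coding genes, and each was given a window made of its RefSeq span plus 5 kb on either side. A peak was assigned to a window where at least 1 bp overlapped. The windows held 34 and 39 peaks in lactate replicates 2 and 3, against 56 and 54 in control replicates 2 and 3. These were parts of lists of 37951 and 38402 peaks in the lactate libraries, against 52215 and 52959 in the control libraries, so the whole lactate lists were shorter. The median peak was 448 and 437 bp wide in the lactate libraries, against 547 and 537 bp in the control libraries. The lists do not state sequencing depth, and the number of reads at each summit was recovered from the deposited fold enrichment and p-value. Its median over all peaks was 21 and 24 reads in the lactate libraries, against 23 and 23 in the control libraries. Summits of called peaks must pass the calling threshold, so these medians do not show that depth was alike. The lowest background recovered at any summit was 0.926 and 1.01 expected reads in the lactate libraries, against 1.19 and 1.12 in the control libraries. The part of depth in the shorter lactate lists was not tested.

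PFKM and PFKFB4 were the members with a peak over an annotated transcription start, and their promoter windows (250 bases before the start to 50 after it) are shown to place that overlap. The sequences are from RefSeq, build GRCh38.p14, written 5′ to 3′ in the direction of transcription. The PFKM window is chr12:48105623-48105922, plus strand, and its capitals mark the 228 bases under both control peaks; no lactate peak reached it. The PFKFB4 window is chr3:48556754-48557053, minus strand, and its capitals mark the 82 bases shared by the peaks of lactate replicate 3, control replicate 2 and control replicate 3.
PFKM: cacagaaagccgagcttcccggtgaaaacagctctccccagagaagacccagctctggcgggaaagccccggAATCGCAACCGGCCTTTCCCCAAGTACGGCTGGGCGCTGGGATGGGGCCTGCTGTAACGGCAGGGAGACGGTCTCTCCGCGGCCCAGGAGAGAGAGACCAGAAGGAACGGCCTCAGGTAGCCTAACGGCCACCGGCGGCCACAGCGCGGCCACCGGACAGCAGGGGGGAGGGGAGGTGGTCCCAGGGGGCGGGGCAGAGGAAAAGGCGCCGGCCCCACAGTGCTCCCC
PFKFB4: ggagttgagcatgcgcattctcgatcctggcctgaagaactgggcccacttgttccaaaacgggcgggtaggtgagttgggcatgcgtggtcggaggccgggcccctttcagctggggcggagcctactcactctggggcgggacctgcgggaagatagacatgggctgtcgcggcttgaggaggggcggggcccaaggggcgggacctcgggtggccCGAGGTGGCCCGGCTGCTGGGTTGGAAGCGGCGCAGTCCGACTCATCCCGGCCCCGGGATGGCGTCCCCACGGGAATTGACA
The G and C content was 68.7% in the PFKM window and 68% in the PFKFB4 window. Letters searched on both strands were CACGTG, the canonical E-box, and ACGTG and GCGTG, the forms of the core of the hypoxia response element; ACGTG lies within CACGTG. The PFKFB4 window held GCGTG and neither of the others, and the printed PFKM window held none of the 3. Among all 34961 promoters of the table, 7.27% held CACGTG, 21.4% held ACGTG and 36.6% held GCGTG. In the family, ACGTG was found in 2 of the 7 PFKM promoters, 1 of the 4 PFKP promoters and 1 of the 2 PFKFB3 promoters. Those 2 PFKM promoters, chr12:48105103-48105402 and chr12:48105231-48105530, overlap, so a single site may be counted in both. The form GCGTG was found in the PFKL promoter, 1 of the 4 PFKP promoters and the other PFKFB3 promoter. The E-box was found in 1 promoter of the family, that of the inner start of PFKFB3 at chr10:6202682-6202981, which no peak overlapped.

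Covered length was lower in both lactate libraries than in both control libraries for 5 of the 7 genes (PFKL, PFKM, PFKP, PFKFB3 and PFKFB4) and higher for 0. Over all coding genes the same was true of 32.8%, and 3.4% were higher in both lactate libraries. The closer background is the 8872 genes with a peak in both control libraries, of which 73.7% were lower in both lactate libraries, beside 5 of the 5 such members. The ratio of the lactate mean to the control mean had a median of 0.435 over those 5 members and of 0.503 over the 8872 genes, whose quartiles were 0.293 and 0.725. The ratios of PFKL, PFKP, PFKFB3 and PFKFB4 lay between those quartiles, and PFKM was at 0. With 2 libraries against 2, an exact permutation test, two-sided, has 6 ways to assign the labels and cannot go below p = 0.333. Lists of called peaks do not separate a change in the mark from a difference in depth or overall enrichment between libraries.

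**Figure D1:**
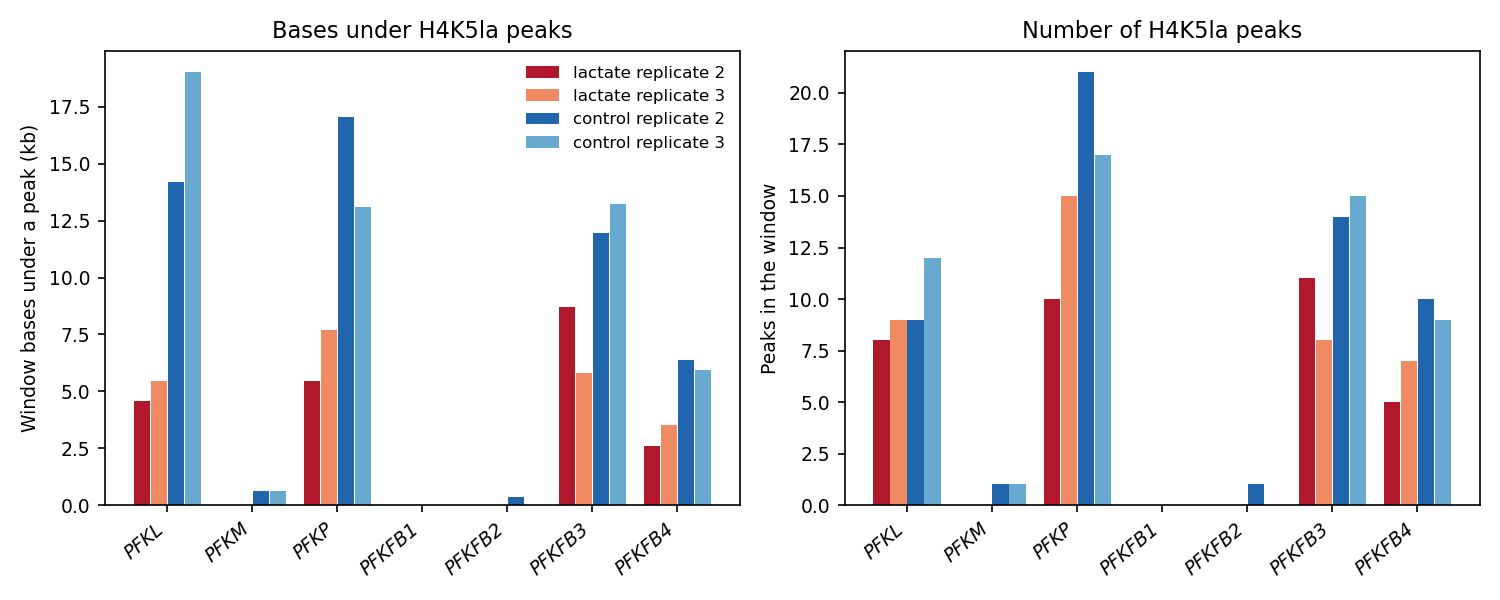
Bases under H4K5la peaks in kb (left) and number of peaks (right) in the window of each gene, 1 bar per library, lactate libraries to the left of control libraries. The lactate bars for covered bases are shorter than both control bars for PFKL, PFKM, PFKP, PFKFB3 and PFKFB4, and PFKFB1 has no bar.

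**Figure D2:**
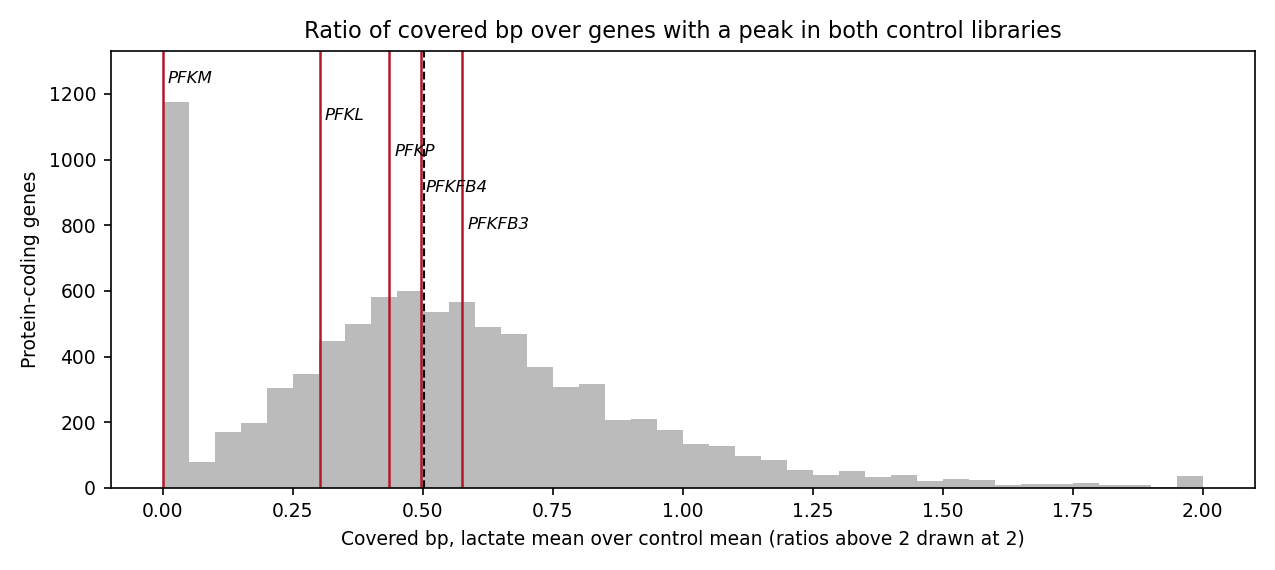
Distribution over the 8872 coding genes with a peak in both control libraries of the mean covered length in lactate libraries over that in control libraries, with the 5 members as solid lines and the median of 0.503 as a dashed line. PFKM sits at 0, among the genes without a lactate peak, and the other 4 members fall in the broad middle of the distribution.

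PFKL, the subunit that predominates in liver, lies at chr21:44300053-44327373 on the plus strand. Peaks covered 4586 and 5435 bp of its 37.32 kb window in lactate replicates 2 and 3, against 14196 and 19022 bp in control replicates 2 and 3. That is 12.3 and 14.6% of the window in the lactate libraries, against 38 and 51% in the control libraries, the highest shares in the family in every library. The groups did not overlap, the means being 5010.5 ± 600 bp with lactate and 16609 ± 3410 bp in control (SD, n = 2 each; ratio 0.302; exact permutation p = 0.333). The number of peaks overlapped between groups, with 8 and 9 in the lactate libraries and 9 and 12 in the control libraries (exact permutation p = 0.667). Median peak width overlapped too, at 642 and 736 bp with lactate and 692 and 917.5 bp in control. Of the 12 merged regions of the PFKL window, 4 had control peaks in both replicates and no lactate peak, beside 14.6% of all regions. A peak in 1 control library alone was found in 2, beside 22.9%, and a peak in every library in 4, beside 28.8%. The regions upstream of the start lay in the neighbouring gene AIRE. Those from 28340 bp onward, without a lactate peak, lay in the neighbouring gene CFAP410. Without the bases of other coding genes, covered length was 3571 and 4394 bp in the lactate libraries, against 13357 and 16555 bp in the control libraries.

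The widest PFKL peaks lay in a block between 11485 and 20366 bp from the start of PFKL. Each control library had a single peak there, 8761 and 8882 bp wide, the widest of any member. The lactate libraries had 3 and 4 separate peaks in the same block, at most 1281 and 1118 bp wide. In all, 99.8% of the bases under a lactate peak in the window also lay under a control peak, whereas 28.4% of the bases under a control peak lay under a lactate peak. When each list was cut to its strongest 37951 peaks by p-value, PFKL kept 8 and 9 peaks in the lactate libraries, against 4 and 3 in the control libraries. The direction of the peak number turned round under that setting, while covered length stayed lower, at 4586 and 5435 bp with lactate, against 11488 and 10225 bp in control. With lists of that equal size, 4 members were lower in both lactate libraries and 0 higher, beside 21% and 6.9% of coding genes, and 4 had a peak in all 4 libraries, beside 29%. Those shares include genes without any peak, which cannot be lower, and no closer background is given for this setting.

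**Figure D3:**
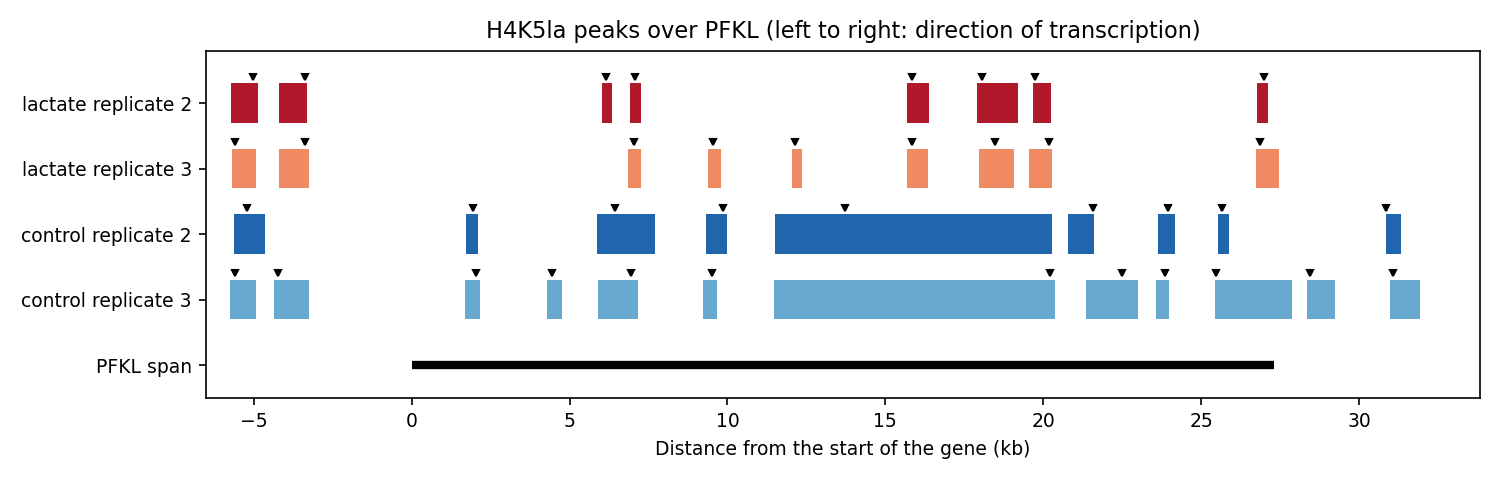
Peaks over PFKL in the 4 libraries, lactate above control; the horizontal axis is distance from the start of the gene in kb, bars are peaks, triangles are summits and the black line is the gene span. Each control library has 1 long bar between 11485 and 20366 bp where the lactate libraries have 3 and 4 short bars.

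PFKL peaks also differed from those of the other members in how they were scored. The background that the caller set against a summit, recovered as an expected number of reads, had a median of 13.5 and 13.2 over PFKL peaks in the lactate libraries, against 11.7 and 10.8 in the control libraries. These were 10.8 and 8.87 times the median background of all peaks in the lactate libraries, and 8.22 and 7.7 times in the control libraries. For the other members with peaks this multiple ran between 0.799 and 1.41, but single peaks had a higher background. At PFKFB4 the highest was 4.66 and 5.26 reads in the lactate libraries, both in COL7A1, against 2.84 and 2.67 in control. At PFKP it was 3.5 and 3.95 reads with lactate, against 2.26 and 1.69 in control. At PFKFB3 the groups overlapped, at 3.5 and 3.21 reads with lactate and 2.48 and 4.11 in control. The background exceeded the 95th percentile of its own library at 6 of 8 and 8 of 9 PFKL summits in the lactate libraries, against 9 of 9 and 11 of 12 in the control libraries. Peaks within 500 kb on either side of the PFKL window had medians of 3.12 and 3.61 reads in the lactate libraries, against 2.84 and 2.67 in the control libraries, so the high values belonged to the window more than to its surroundings. PFKL summits held a median of 50.5 and 51 reads in the lactate libraries, against 40 and 41 in the control libraries. Their fold enrichment ranked low within each list, at a median percentile of 4.06 and 2.56 in the lactate libraries and 1.29 and 2.57 in the control libraries. The part of this background in the results at PFKL and the other members was not tested.

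**Figure D4:**
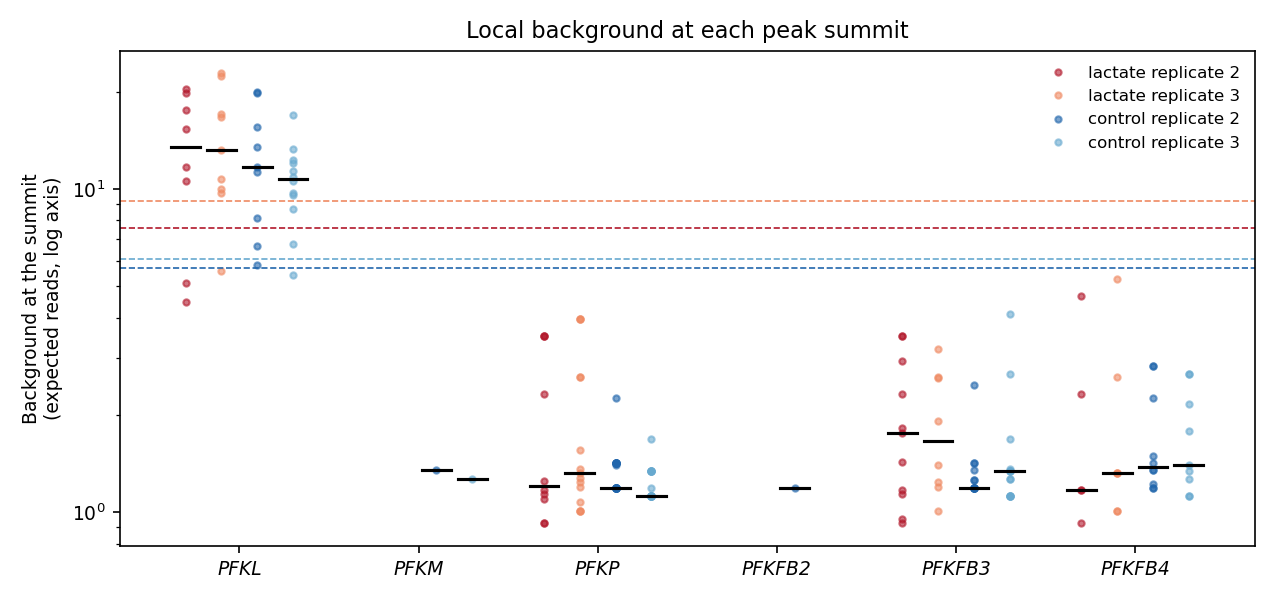
Background expected at each peak summit, in reads on a log axis, for the 6 members with a peak; points are peaks, black bars are medians, libraries run from lactate on the left to control on the right, and dashed lines are the 95th percentile of each library. Most PFKL summits lie above these lines and the summits of the other members lie below them.

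PFKM, the muscle-type subunit, lies at chr12:48105353-48146404 on the plus strand. Its window held 0 peaks in both lactate libraries and 1 peak in each control library, covering 620 and 621 bp. The peak spanned chr12:48105593-48106212 in control replicate 2 and chr12:48105695-48106315 in control replicate 3, over the cluster of PFKM starts that includes the printed promoter. It held 17 and 11 reads at its summit over a background of 1.35 and 1.27 expected reads, with fold enrichments of 6.64 and 4.73. Both peaks also lay in the span of the neighbouring gene SENP1, a protease of the SUMO pathway, so they cannot be assigned to PFKM alone. PFKM was the 1 member of 7 with control peaks in both replicates and no lactate peak, a pattern held by 5.77% of coding genes. In the closer background it was held by 1153 of the 8872 genes with a peak in both control libraries, beside 1 of 5 such members. The converse pattern was held by 0 members and 1.11% of coding genes. Where only peaks with a -log10 q of at least 5 were kept, or lists of equal size, the peak remained in control replicate 2 alone.

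PFKP, the platelet-type subunit, which many tumour lines express, lies at chr10:3067548-3136805 on the plus strand and had the most peaks of the family in all libraries but lactate replicate 2, where PFKFB3 had 1 more. It had 10 and 15 peaks in the lactate libraries, against 21 and 17 in the control libraries. Peaks covered 5443 and 7697 bp in the lactate libraries, against 17053 and 13121 bp in the control libraries. Neither measure overlapped between groups, and covered length averaged 6570 ± 1590 bp with lactate and 15087 ± 2780 bp in control (SD, n = 2 each; ratio 0.435; exact permutation p = 0.333). Fewer peaks in both lactate libraries were seen for 4 of 7 members (PFKM, PFKP, PFKFB3 and PFKFB4), beside 19.4% of all coding genes and 43.6% of those with a peak in both control libraries; more peaks were seen for 0 members and 2.25% of coding genes. The widest PFKP peak measured 962 and 915 bp in the lactate libraries, against 2934 and 2406 bp in the control libraries. A narrower widest peak in both lactate libraries was seen for 5 of 7 members, beside 30.4% of all coding genes and 68.4% of those with a peak in both control libraries; a wider one was seen for 0 members and 3.67% of coding genes. PFKFB4 counts among these 5 only through peaks in the neighbouring gene COL7A1, as given with that gene.

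The PFKP peaks lay inside the gene and past its end rather than at its first starts. Some of those past its end lay in the neighbouring gene PITRM1. The most upstream summit of every library fell at about the same place, 8800 and 8746 bp into the gene in the lactate libraries, against 8800 and 8809 bp in the control libraries. This peak held 23 and 22 reads in the lactate libraries, against 19 and 19 in the control libraries, with fold values of 11.6 and 10 with lactate and 7.82 and 8.29 in control. Each library gave 1 peak there, of 523 and 557 bp with lactate and 682 and 567 bp in control. In all, 5 sites of the PFKP window had a summit within 200 bp of the next in all 4 libraries. The site at 70989 bp lay past the end of the gene, under peaks in PITRM1. Between 54787 and 57799 bp from the start, control replicate 2 had a single peak of 2934 bp. Control replicate 3 had 2 peaks there, the wider one 1962 bp. The lactate libraries also had 2 peaks each, at most 625 and 858 bp wide. The widest lactate peaks held 24 and 33 reads over a background of 3.5 and 3.95 expected reads. The widest control peaks held 25 and 30 reads over 1.19 and 1.12. The reads thus overlapped between groups, while the background was higher in both lactate libraries. Its part in the widths was not tested. The nearest peak to any of the 4 PFKP starts in the promoter table was 4090 and 499 bp away in the lactate libraries, against 467 and 502 bp in the control libraries.

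PFKFB1, the isoform best known from liver and muscle, lies at chrX:54932961-54998789 on the minus strand and had no peak in its 75.83 kb window in any library. It shared this with 40.6% of coding genes. PFKFB2, the isoform best known from heart, lies at chr1:207034416-207081027 and had 1 peak, in control replicate 2 alone, at chr1:207050655-207050988. That peak held 15 reads with a fold enrichment of 6.29 and lay in the spans of both PFKFB2 and YOD1, a deubiquitinase gene. Covered length at PFKFB2 was therefore 0 and 0 bp in the lactate libraries, against 334 and 0 bp in the control libraries, and the groups overlapped (exact permutation p = 1). Absence of a peak at PFKFB1 or PFKFB2 does not show absence of the mark, which may be present below the calling threshold.

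PFKFB3, the inducible isoform whose kinase activity far exceeds its phosphatase activity, lies at chr10:6144921-6326637 on the plus strand, with no other coding gene in its window. It had 11 and 8 peaks in the lactate libraries, against 14 and 15 in the control libraries. Peaks covered 8706 and 5809 bp in the lactate libraries, against 11964 and 13214 bp in the control libraries, in a window of 191.7 kb. The groups did not overlap, with means of 7257.5 ± 2050 bp with lactate and 12589 ± 884 bp in control (SD, n = 2 each; ratio 0.576; exact permutation p = 0.333). This was the highest ratio of the 5 members with peaks in both control libraries. The widest peak differed least here too, at 2456 and 1928 bp in the lactate libraries, against 2514 and 3010 bp in the control libraries.

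Peak positions in PFKFB3 recurred across libraries, with 5 sites having a summit within 200 bp of the next in all 4. One lay 29560 and 29599 bp into the gene in the lactate libraries, against 29621 and 29604 bp in the control libraries, with 26 and 29 reads with lactate and 26 and 28 in control. Its width was 436 and 465 bp in the lactate libraries, against 509 and 533 bp in the control libraries, so this peak was nearly alike in all 4. Another lay 70471 and 70481 bp into the gene in the lactate libraries, against 70530 and 70507 bp in the control libraries, with widths of 1582 and 1347 bp with lactate and 1642 and 1699 bp in control. Regions with control peaks in both replicates and no lactate peak were centred near 37677 and 86959 bp. No library had a peak within 1 kb of either PFKFB3 start, the nearest being 9169 and 9164 bp away in the lactate libraries, against 8956 and 4197 bp in the control libraries.

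PFKFB3 peaks narrower than 500 bp, a limit chosen after the data were seen, covered 2211 and 1990 bp in the lactate libraries, against 1280 and 1174 bp in the control libraries, with 5 and 5 such peaks with lactate and 3 and 3 in control. The split is on width, the measure that differs, so these values show no gain: the peak at the site 29560 bp into the gene, for example, was under the limit in both lactate libraries and over it in both control libraries.

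PFKFB4, an isoform induced by hypoxia and found in many tumours, lies at chr3:48517684-48563136 on the minus strand. It had 5 and 7 peaks in the lactate libraries, against 10 and 9 in the control libraries. Peaks covered 2574 and 3531 bp in the lactate libraries, against 6369 and 5937 bp in the control libraries. The groups did not overlap, with means of 3052.5 ± 677 bp with lactate and 6153 ± 305 bp in control (SD, n = 2 each; ratio 0.496; exact permutation p = 0.333). Part of the window belongs to UCN2 and COL7A1, which encode a peptide hormone and a collagen. Without the bases of those genes the means were 1355 bp with lactate and 3188.5 bp in control, a ratio of 0.425. The widest peak of the full window measured 818 and 770 bp in the lactate libraries, against 1683 and 1606 bp in the control libraries, and those control peaks lay in COL7A1. On the gene span alone, or without the other genes, it measured 818 and 770 bp in the lactate libraries, against 771 and 837 bp in the control libraries, and the groups overlapped (exact permutation p = 0.667).

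The annotated PFKFB4 start shown above, chr3:48556803, lies inside the gene span, whose upstream end is chr3:48563136 and is described further below. At the start shown above, a peak was present in lactate replicate 3 but not in lactate replicate 2, and in both control libraries. It held 13 reads in lactate replicate 3, against 22 and 13 in the control libraries, and in lactate replicate 2 the nearest peak was 3843 bp away. The peak of control replicate 3 was near the calling threshold, with a -log10 q of 2.48. That value was 5.52 in lactate replicate 3 and 6.93 in control replicate 2. Further regions at 157, 20944 and 34670 bp from the lower-numbered end of the gene, had control peaks in both replicates and no lactate peak. The summit at 34670 bp was at the same base in both control libraries, with 23 and 22 reads.

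The strongest PFKFB4 peaks by fold enrichment within the lactate lists lay at the upstream end of the gene span, where it meets UCN2. All 4 libraries had a summit there within 25 bp. This peak held 37 and 31 reads over a background of 1.17 and 1.32 in the lactate libraries, against 19 and 18 reads over 2.84 and 2.67 in the control libraries. Its fold enrichment was 16.4 and 12.3 in the lactate libraries, at the 98.8 and 91.4 percentiles of their lists, and 4.79 and 4.82 in the control libraries, at the 13.3 and 11.7 percentiles of theirs. It was 532 and 489 bp wide in the lactate libraries, against 432 and 321 bp in the control libraries, the opposite direction to the window as a whole. The site was chosen for description with its values known. Both the reads and the background differ between the groups there, and fold enrichments of separate lists do not measure a change. The neighbouring peak, 42962 to 43810 bp from the lower-numbered end of the gene, had fold enrichments of 14.7 and 11.9 in the lactate libraries and 8.59 and 7.88 in the control libraries, with widths of 818 and 770 bp with lactate and 771 and 837 bp in control, which overlap.

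**Figure D5:**
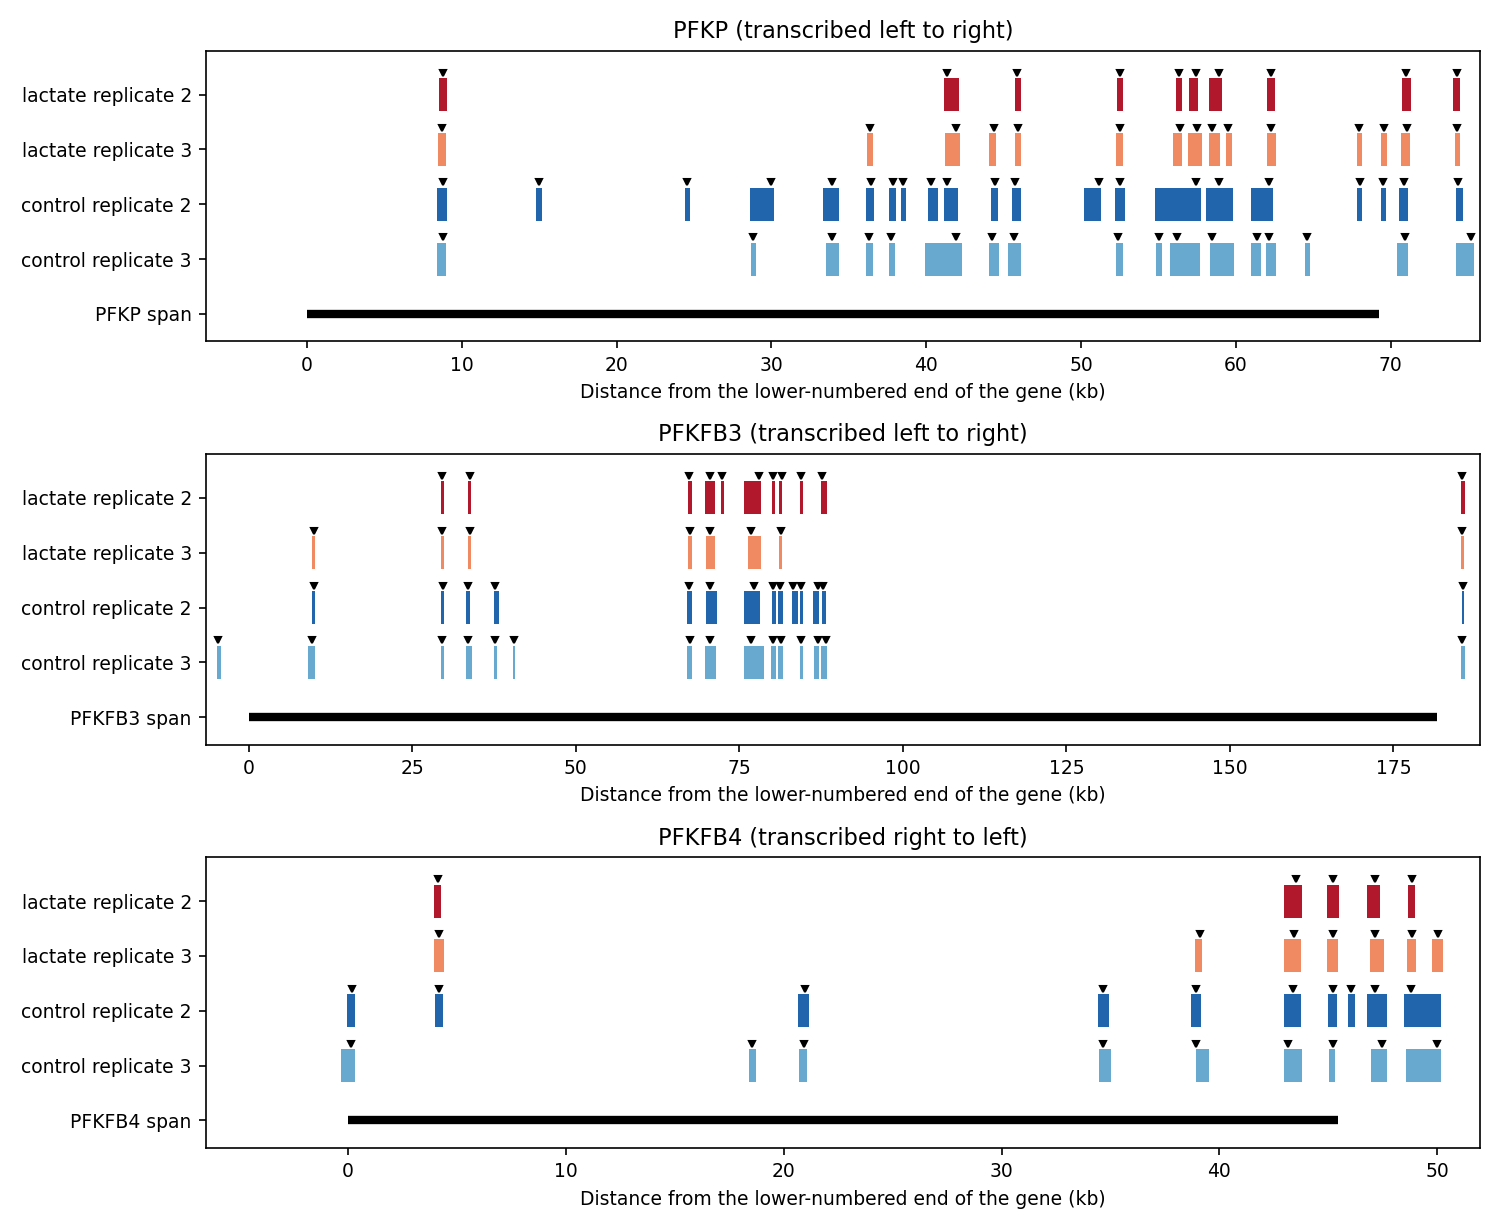
Peaks over PFKP, PFKFB3 and PFKFB4 in the 4 libraries, lactate above control; the horizontal axis is distance from the lower-numbered end of the gene in kb, bars are peaks, triangles are summits and black lines are gene spans. Many lactate peaks sit at places where the control libraries also have a peak, and the control tracks hold additional bars and wider ones.

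Merging the peaks of the 4 libraries gave 63 regions in the windows of the family. A peak in all 4 libraries was found in 24 of these (38.1%), beside 28.8% of the 71122 regions of the whole series. A peak in both control libraries and no lactate library was found in 13 (20.6%), beside 14.6% overall. A peak in both lactate libraries and no control library was found in 0, beside 2.75% overall. A single region, 72318 bp into PFKFB3, had its peak in 1 lactate library alone, and that peak held 9 reads. Of the bases under any lactate peak, 93.2% at PFKP, 94.4% at PFKFB3 and 93.4% at PFKFB4 also lay under a control peak, while of the bases under any control peak 40% at PFKP, 57.5% at PFKFB3 and 47.2% at PFKFB4 lay under a lactate peak. Counted by gene, 4 of 7 members (PFKL, PFKP, PFKFB3 and PFKFB4) had a peak in all 4 libraries, beside 33% of all coding genes and 74.4% of those with a peak in both control libraries.

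The coding genes whose covered lengths were most like those of each such member were found as the smallest distance over the 4 libraries on the scale of log2(covered bp + 100). For PFKL these were ZC3H18, KIF26A and AP3D1, at distances of 0.27 to 0.28. For PFKP they were PDE6B, TPPP and NFAM1, at distances of 0.25 to 0.26. For PFKFB3 they were COL9A3, STK24 and VIPR2, at distances of 0.17 to 0.20. For PFKFB4, TSPAN17 and SLC25A25 were at distances of 0.16 and 0.17.

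Other genes of the pathway were read in windows of the same rule. Of the 24 other glycolysis genes, 13 had lower covered length in both lactate libraries and 1, the aldolase gene ALDOC, had higher, beside 32.8% and 3.4% of all coding genes. ALDOC had 544 and 649 bp under a peak in the lactate libraries, against 0 and 389 bp in the control libraries. Their median ratio was 0.471 over the 15 with a peak in both control libraries, beside 0.503 over the 8872 coding genes of that kind, of which 73.7% were lower. Control peaks in both replicates and no lactate peak were seen for 3 of the 24, beside 5.77% of coding genes: ENO3, LDHA and LDHB, which encode an enolase and both common lactate dehydrogenase subunits. In the closer background these are 3 of the 15, beside 1153 of the 8872. LDHA had 0 and 0 bp in the lactate libraries, against 377 and 915 bp in the control libraries. Among the genes that counter phosphofructokinase, FBP2 was lower in both lactate libraries, FBP1 overlapped between groups and TIGAR had no peak. Among kinases known to act on PFKFB enzymes, AKT1 and PRKACA were lower in both lactate libraries, while PRKAA1 and PRKAA2, catalytic subunits of AMPK, had no peak.

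The labelled cell type could not be checked by expression, since peaks of the mark do not measure it. Of 7 hepatocyte markers, APOA1 and HNF4A had a peak in all 4 libraries and ALB, APOB and TTR had none; the carcinoma markers AFP and GPC3 had none either. All 4 stromal and endothelial markers (COL1A1, COL1A2, PECAM1 and CDH5) had a peak in all 4 libraries. Over all coding genes, 33% had a peak in all 4 libraries and 40.6% had none, so these few markers do not identify the cells. Among blood markers, PTPRC had none and CD68 had control peaks alone.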

How the data were processed

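Per the submitters' processing notes, the build was hg38 and the tools named, without a role, were MACS2 2.2.6, Bowtie2 2.3.4.2, Picard 2.18.11, SAMtools 1.9, Trimmomatic 0.38, FastQC 0.11.7, featureCounts 1.6.3 and RSEM. Per the labels' protocols, the reads went through trimming, alignment and removal of duplicates. The authors deposited 1 peak list for each antibody library, not pooled lists. Each row of the authors' deposited lists has a position, a summit, a whole-number score, a ratio over background called fold enrichment, a -log10 p-value and a -log10 q-value. Over the lists the minimum -log10 q was 2.00 to 2.02, the place of a q threshold of 0.01. Which background the caller used is not given in the sources used here.

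Gene spans and promoters came from RefSeq tables of GRCh38.p14, the assembly behind hg38; all 7 members matched, and 6 of them had a promoter. Strand for PFKFB2, exons and protein sequences were not analysed here. Covered bp, peak number and widest peak were computed per window and library and tested by exact permutation of the labels, two-sided. Reads and background at each summit were recovered from the caller's formulas, a step added after the data were seen; 100% of peaks in every library gave a whole number of reads, with a tolerance of 0.001 in -log10 p. On simulated peaks 100% of 11495 summits and 100% of 1000 covered lengths were recovered. The summits were simulated from the same formulas, with backgrounds mostly below those of the PFKL peaks. Their recovery therefore checks the calculation and not the formulas. Merged regions shared at least 1 bp. The motif GCGTG was added after the data were seen.

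The members, gene lists and tests were chosen with earlier results of these data known. All members are named, with those coding genes sharing their windows that lay under a peak there. The rule also takes the 3 most alike genes of each member with peaks in all 4 libraries, and list genes where a count was 5 or fewer. Single sites were chosen after their values were seen. Some genes that this rule or the marker lists take are not reported here. Alternatives were other windows, stricter or equal-sized lists, assignment by summit, joined peaks, windows without other coding genes, each library left out, a replicate block, other summit distances and, added later, peaks narrower than 500 bp alone. Python 3.11.15, numpy 2.4.6, pandas 2.3.3, scipy 1.17.1 and matplotlib 3.10.9 were used.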

Additional observations from a re-analysis of the deposited data

How the results depend on the processing

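Of 299 alternative values, 280 kept their direction or stayed without a difference (counts within 1.5 times), 13 moved and 6 reversed. The 280 include all values of PFKFB1, which had no peak under any setting and so no direction to keep. They also include the replicate block, which repeats the main differences by construction. Sizes varied: apart from leaving out libraries, the covered-bp ratio ran from 0.266 to 0.723 for PFKL, 0.392 to 0.868 for PFKP, 0.55 to 1.71 for PFKFB3 and 0.425 to 0.799 for PFKFB4, each highest with peaks of at least 500 bp left out. The widest-peak difference at PFKFB4 was -850.5 bp, and -10 bp on the gene span alone and without other coding genes. The number of PFKL peaks, lower by 2 on average with lactate, reversed to a difference of 0.5 with a -log10 q of at least 5 and of 5 with lists of equal size. With peaks of at least 500 bp left out, chosen after seeing the data, PFKFB3 reversed to a difference of 2 peaks, 873.5 covered bp and 18.5 bp in the widest peak, and the widest PFKP peak to 2 bp. Under that setting the covered bp of PFKM differed by 0, and the count of members lower with lactate was 1, PFKL, in place of 5. The removal of wider peaks, which are more common in control, is built into that setting. Covered bp at PFKFB2 differed by 0 with equal lists, in the window without other coding genes and without control replicate 2. Leaving out each library in turn, the covered-bp difference, lactate minus control, ran from -14011.5 to -9185.5 for PFKL, -621 to -620 for PFKM, -10483 to -6551 for PFKP, -334 to 0 for PFKFB2, -6780 to -3883 for PFKFB3 and -3579 to -2622 for PFKFB4.

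The labels do not say whether libraries of the same replicate number were handled together. Deviations of same-numbered libraries correlated with Pearson's r of 0.000499 and Spearman's rho of 0.0174 across 11869 genes, which are not independent replicates. With so few libraries, such low values cannot exclude a pairing. The replicate block gave the same differences, for PFKL -11598.5 bp with p = 0.5 by exact sign-flip, the smallest p that 2 pairs allow. Peak lists hold values above a threshold, and differences in depth or enrichment between groups cannot be told apart from a change in the mark.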
